A study of Citrus trifoliata with 6 samples.

Results

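MYB proteins are transcription factors that bind DNA through imperfect repeats of a helix-turn-helix domain, and in plants most of them carry the R2 and R3 repeats. Members of the family control phenylpropanoid and flavonoid synthesis, secondary wall and suberin deposition, epidermal cell fate and, through the MYB-CC type, phosphate starvation responses. In Medicago truncatula the protein MYB1 works with the GRAS proteins DELLA and NSP1 and activates hydrolase genes when arbuscules, the branched fungal structures inside cortical cells, are degraded.

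The genes described here are the MYB genes of the lateral roots of Poncirus trifoliata, a citrus rootstock. A gene was taken as a MYB gene when the best protein hit in its deposited annotation names a MYB protein (R2R3, MYB with a number, MYB domain, MYB family, MYB transcription factor, MYB-related or myb-like), with clock proteins of the LHY and LUX kinds left out. This text matched 39 genes, of which 0 were left out as clock genes, and Cs6g08490 was added as the gene that the study names MYB1. The 40 genes are part of 22589 genes listed in at least 1 library. The deposited hit of Cs6g08490 is an uncharacterized grapevine protein with no KEGG entry, so its name rests on the study and not on the files.

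Lateral roots were taken from plants inoculated with the arbuscular mycorrhizal fungus Glomus versiforme, at about 3000 spores per pot (Gv), and from non-inoculated plants (control). Seedlings of both groups were transplanted into sterile sand with 8 plants per pot, were watered with a diluted Hoagland solution holding 20 μM phosphorus, and were sampled 3 months post-inoculation. Each group has 3 biological replicates, and each replicate pooled at least 9 plants from different pots. Whole lateral roots were taken, so colonized and uncolonized cells are mixed in every Gv library, and a larger share of cells that express a gene cannot be told apart from more RNA per cell.

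Messenger RNA was sequenced, and the reads that aligned uniquely to each gene of the sweet orange (Citrus sinensis) genome were counted. The reads on genes numbered 4.34 M to 4.71 M (M, megareads) in a library. The values given are these reads, or the RPKM (reads per kilobase of gene, scaled to the reads on all genes). Genes without reads are absent from a library's table and were taken as 0. The libraries with replicate number 3 stand apart from the other 4 in both groups, as described below for the MYB genes. Cs7g29450, a gene of a symbiotic phosphate transporter, had 2, 1 and 0 reads in control replicates 1, 2 and 3 against 839, 983 and 5257 in Gv, so every library fitted its label.

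The sequences shown are the qRT-PCR primers the study designed for the added gene, because they are the sequences the study gives under this gene's identifier. Both are written 5′ to 3′, no base is set in capitals, and their position within the gene was not mapped here.
MYB1 (Cs6g08490) forward primer: tccgatggctctgggaaa
MYB1 (Cs6g08490) reverse primer: ttcgaaacgataatggagctctt

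The question for the family was which of its genes differ between colonized and control roots. MYB1 was near absent from control roots and well expressed in colonized roots, and no other MYB gene passed a test. In Gv replicates 1, 2 and 3, MYB1 had 140, 126 and 582 reads. It had 3, 3 and 1 reads in control replicates 1, 2 and 3. All Gv libraries exceeded all control libraries, and Gv replicate 3 lay far above the other two.

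In RPKM, which allows genes of different length to be compared, MYB1 stood at 25.7, 22.0 and 108 in Gv against 0.537, 0.514 and 0.177 in control. The mean was 52.0 ± 48.7 RPKM (SD, n = 3) in Gv against 0.409 ± 0.202 RPKM (SD, n = 3) in the controls. The error in Gv is nearly as large as the mean because of replicate 3. MYB1 ranked 8, 8 and 2 among the 40 MYB genes by RPKM in Gv replicates 1, 2 and 3, and 26, 25 and 29 in control replicates 1, 2 and 3. Among all genes listed it moved from percentiles between 15.5 and 23.5 in control to percentiles between 86.1 and 98.2 in Gv. Reads covered 70.5%, 64.7% and 79.5% of its length (1239 bases) in Gv against 11.9%, 11.4% and 3.95% in control, so the Gv reads were spread over the gene.

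**Figure D1:**
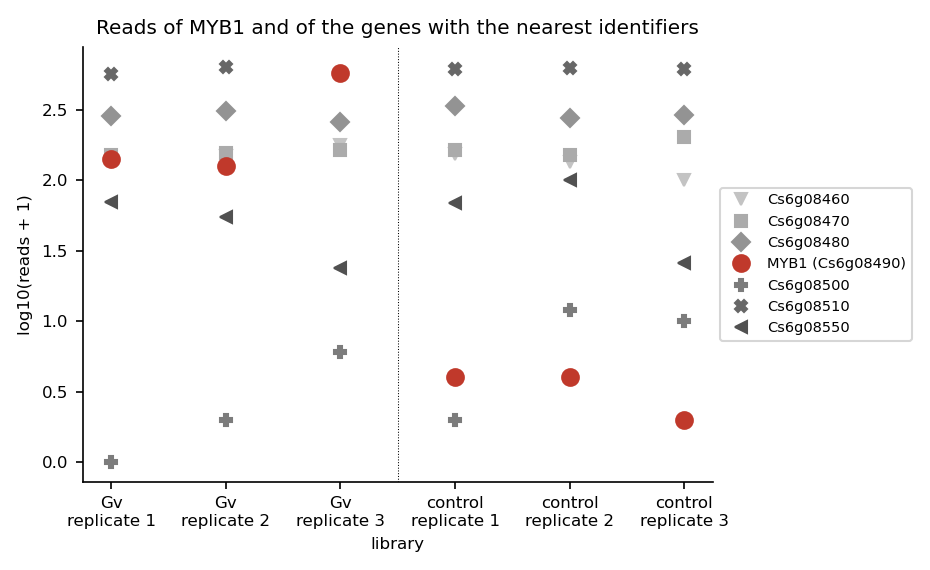
Reads of MYB1 (Cs6g08490, red) and of the genes whose identifiers lie nearest to it (grey) in each library, as log10 of reads + 1. MYB1 has 126 to 582 reads in the Gv libraries and 1 to 3 in the control libraries, while Cs6g08480 has 260 to 336 reads in all 6.

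The log2 fold change of Gv over control (log2FC) of MYB1 was 6.89 (standard error 0.95, 95% confidence interval 4.62 to 9.16) in edgeR's quasi-likelihood (QL) test, with no replicate term. Its adjusted p in that edgeR test was 0.294, so it was not called at the limits used, an adjusted p under 0.05 with a log2FC of at least 1 in size. With the replicate number as a block, which pairs Gv and control libraries of the same number, edgeR gave 6.79 (standard error 0.50, adjusted p = 0.00702) and called it. The labels do not state this pairing, which was inferred from these data. DESeq2 gave 6.97 (adjusted p = 3.84e-12). With both replicate 3 libraries left out, an alternative chosen after seeing the data, edgeR gave 5.42 (adjusted p = 0.00150). Without Gv replicate 3 alone it gave 5.79 (adjusted p = 0.00763). By size of log2FC MYB1 ranked 91 of 16281 genes tested, and by the p of the test without block it ranked 11. In an exact two-sided permutation test of its RPKM over the libraries p was 0.10, the smallest that 3 libraries against 3 can give. MYB1 was added as a gene that the study chose on these libraries, and it passed the filter through its Gv libraries alone. These p-values and ranks thus describe its size and spread here and are not independent evidence.

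Within each replicate number the RPKM of MYB1 in Gv was 47.9, 42.8 and 611 times that in the control for numbers 1, 2 and 3. The pooled reads, 848 in Gv and 7 in control, give a ratio of 125 (95% interval 60.4 to 312, exact binomial, counting error only). Replicates 1 and 2 thus had ratios that resemble each other, and the ratio in replicate 3 was larger and rests on a single control read. The RPKM of MYB1 in Gv replicate 3 was 4.54 times the mean of Gv replicates 1 and 2. The same ratio was 6.00 and 6.37 for Cs7g29450 and Cs9g18560, the genes of the symbiotic phosphate transporters of arbuscule-containing cells. MYB1 reached 22.2%, 17.0% and 14.7% of the RPKM of Cs7g29450 in Gv replicates 1, 2 and 3. Whether replicate 3 held more colonized root was not tested.

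The genes next to MYB1 by identifier on chromosome 6 did not share its pattern. Cs6g08480, a hypothetical protein gene, had 286, 312 and 260 reads in Gv against 336, 275 and 291 in control. Cs6g08510, a putative calcium-dependent protein kinase gene, had 566 to 640 reads in Gv and 615 to 631 in the controls. Cs6g08500, a putative leucoanthocyanidin dioxygenase gene, was near 0, with 0, 1 and 5 reads in Gv against 1, 11 and 9 in control.

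The genes with the pattern most like MYB1 were found by the correlation of log2(RPKM + 0.5) over the 6 libraries, among 16281 genes tested. Since the libraries form separate groups, this is a measure of likeness in pattern with no test. The 10 highest had correlations from 0.997 to 0.999. Cs3g21210, a cytochrome P450 gene, came first (0.999), with 323, 394 and 1865 reads in Gv against 7, 5 and 1 in control. The putative cysteine protease gene Cs2g04950 had 61, 56 and 209 reads in Gv against 0 in all 3 controls. The phosphate transporter gene Cs7g29450 was among the 10. So were the ammonium transporter gene Cs7g04990, with 271, 302 and 1796 reads in Gv, and the subtilisin-like protease gene Cs5g09920, with 1205, 1540 and 9885. The last 2 genes had at most 1 read in a control library. The other 5 were Cs7g12680, orange1.1t01039, Cs5g04260, orange1.1t00346 and Cs2g20480, and orange1.1t01039 is itself annotated as a transcription factor, of the palmate-like pentafoliata kind.

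MYB1 of Medicago acts with partners and on target genes, and citrus genes of both kinds were read from the same fits. The study lists 6 hydrolase genes (cysteine proteases and chitinases) and chose them on these libraries, so they are not independent evidence. Of these, 5 passed the filter and 5 had an unadjusted p under 0.05 in edgeR's test without block, where 3% of all genes tested were higher at that limit. That test called 0 of them, the fit with the block called 3 (background 0.958%) and DESeq2 called 4 (background 1.15%). Their median log2FC was 5.80. The choice of these genes fixes these counts and this median, so nothing is read from the shares beside them. The putative cysteine protease gene Cs2g15490 had 45, 91 and 1160 reads in Gv against 0 in all 3 controls, so all of its reads came from Gv roots.

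Among 8 genes whose hit names a DELLA protein (no hit named NSP1), 7 passed the filter, 0 were called without block and 2 were called higher with it (background 0.958%). At an unadjusted p under 0.05 in edgeR's test without block 3 were higher (background 3%), DESeq2 called 2 (background 1.15%) and the NOISeq criterion 3 (background 1.35%). In 4 of the 7 all Gv libraries exceeded all controls (background 5.35%), and the median log2FC was 1.03. The genes called with the block were Cs2g25740, with 96, 99 and 544 reads in Gv against 0 in all 3 controls, and Cs7g10070, with 24, 31 and 124 in Gv against 0 in all 3 controls. Both are annotated as DELLA protein GAI1, a hit name that other GRAS proteins can also receive, and both are among the genes that the study picked for qRT-PCR. Both passed the filter through their Gv libraries alone, and the list was written with earlier results of these data known. Nothing is therefore read from the shares beside these counts or from the median. The other genes with separated groups, named after their values were seen, were orange1.1t01684, with 96, 128 and 282 reads in Gv against 77, 90 and 63 in control, and orange1.1t03259, with 20, 23 and 55 against 18, 15 and 16. The study places orange1.1t01684 as an ortholog of MIG1, another GRAS gene, so it is a DELLA gene by its hit name only. The highest genes with a DELLA hit did not follow them. Cs2g16940 had 1206, 1096 and 916 reads in Gv against 1231, 1039 and 1141 in control, and Cs9g19410 had 1328, 1341 and 1086 against 1218, 1499 and 986. For Cs2g16940 and Cs9g19410 the groups overlapped.

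No other gene of the 40 was called in any fit. Of the 40 genes, 20 passed edgeR's filter for expressed genes, with at least 62 reads over the 6 libraries, and 20 did not, with at most 48. MYB1 passed through its Gv libraries alone and was added as a gene that the study chose on these libraries, so its calls are not read against the shares below, which bear on the other 19. The test without block called 0 MYB genes higher and 0 lower, where it called 0% of all genes tested in either direction. At an unadjusted p under 0.05 it held 1 MYB gene higher (MYB1, background 3%) and 0 lower (background 1.57%). The fit with the block called 1 of 20 higher, MYB1 (background 0.958%), and 0 lower (background 0.0369%). DESeq2 also called MYB1 and no other MYB gene (background 1.15% higher and 0.0369% lower), as did the NOISeq criterion over all 40 genes (background 1.35% higher and 0.323% lower). Without both replicate 3 libraries the edgeR test called MYB1 alone of 21 MYB genes tested (background 1.02% higher and 0.239% lower). Without Gv replicate 3 it again called MYB1 alone of 21 (background 0.41% higher and 0.00603% lower), as did limma on log2(RPKM + 0.5) among 20 (background 0.135% higher and 0% lower).

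The other 19 genes that passed had log2FC values from -0.53 to 0.67 without block, with 8 above 0 and 11 below. Their median was -0.08, against -0.01 over all genes tested. The smallest unadjusted p among them was 0.0785, and every adjusted p from edgeR was 1.00. With the block they ranged from -0.54 to 0.74, and the smallest adjusted p from edgeR was 0.422. The smallest unadjusted p of that edgeR fit was 0.0220, for Cs4g18250. The median standard error of their log2FC values was 0.60 without block and 0.24 with it. The confidence intervals of several of these genes are wide enough to hold a 2-fold change in either direction, so a difference of that size was not detectable for them in the test without block.

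**Figure D2:**
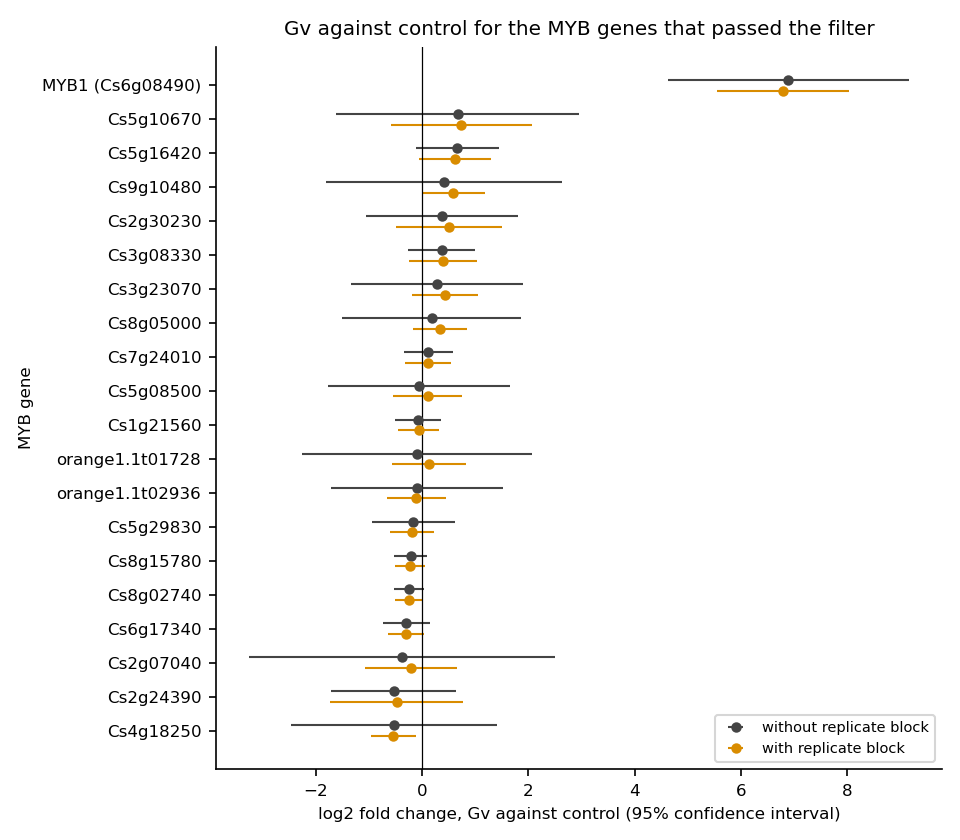
Log2FC of Gv against control for the 20 MYB genes that passed the filter, with 95% confidence intervals from edgeR's quasi-likelihood test without (grey) and with (orange) the replicate number as a block. MYB1 stands at 6.89 and 6.79, and the other 19 lie between -0.54 and 0.74.

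By RPKM alone, all Gv libraries exceeded all control libraries for 2 of the 40 genes (background 5.49%) and lay below all of them for 1 (background 3.12%). Over the 20 genes that passed, these are again 2 higher (background 5.35%) and 1 lower (background 3.26%). The genes higher in Gv were MYB1 and Cs3g08330, whose hit is the MYB-CC type protein APL, needed for phloem identity in Arabidopsis. Cs3g08330 stood at 3.47, 3.53 and 3.84 RPKM in Gv against 2.97, 3.31 and 1.99 in control. The groups are separated by a narrow gap, and its log2FC was 0.37 (standard error 0.26, adjusted p = 1.00 in edgeR's test without block). The gene lower in Gv was Cs8g02740, a putative R2R3 gene, with 18.1, 17.8 and 18.2 RPKM in Gv against 22.7, 19.2 and 22.0 in control. Its log2FC was -0.25 (standard error 0.12, adjusted p = 1.00 in the same edgeR test). The highest library of Cs8g02740 was 1.27 times its lowest, and that of Cs3g08330 was 1.93 times. Fewer libraries separate more often, so counts with libraries left out were read against the same share of all genes listed. The count higher was 4 without Gv replicate 2 (background 8.76%), without control replicate 1 (background 9.43%) and without control replicate 3 (background 14.3%). The count lower was 2 without Gv replicate 2 (background 6.22%), without control replicate 1 (background 5.4%) and without control replicate 3 (background 8.61%). It was 3 without Gv replicate 3 (background 9.19%) and 4 without control replicate 2 (background 7.57%). Without both replicate 3 libraries 5 genes were higher (background 22.3%) and 5 lower (background 15.3%). MYB1 is among those higher, and 15 of the 40 genes had no read in at least 1 library. Nothing about the family is therefore read from these counts.

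The MYB genes covered a wide range of levels. The mean RPKM over the 6 libraries was at least 10 in 12 genes and under 1 in 20, and the median of the 40 means was 1.35 RPKM, against 4.22 over all genes listed. In all 6 libraries 25 genes had reads, 15 had none in at least 1 library, and 8 had at most 10 reads in all. A single gene dominated. Cs3g23070, a putative R2R3-MYB gene whose hit is a sweet orange protein, stood at 596, 532 and 190 RPKM in Gv against 345, 601 and 115 in control. It held 58.8%, 55.5% and 38.2% of the summed RPKM of the family in Gv replicates 1, 2 and 3 and 50.8%, 55.6% and 36.1% in control replicates 1, 2 and 3.

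The share of Cs3g23070 was lowest in replicate 3 of both groups, and so was the share of the family among all reads. The 40 genes took 0.200%, 0.188% and 0.0910% of the reads on genes in Gv replicates 1, 2 and 3. In control replicates 1, 2 and 3 they took 0.134%, 0.217% and 0.0627%. The Gv and control libraries overlapped in this share, and the replicate 3 library was the lowest of each group.

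**Figure D3:**
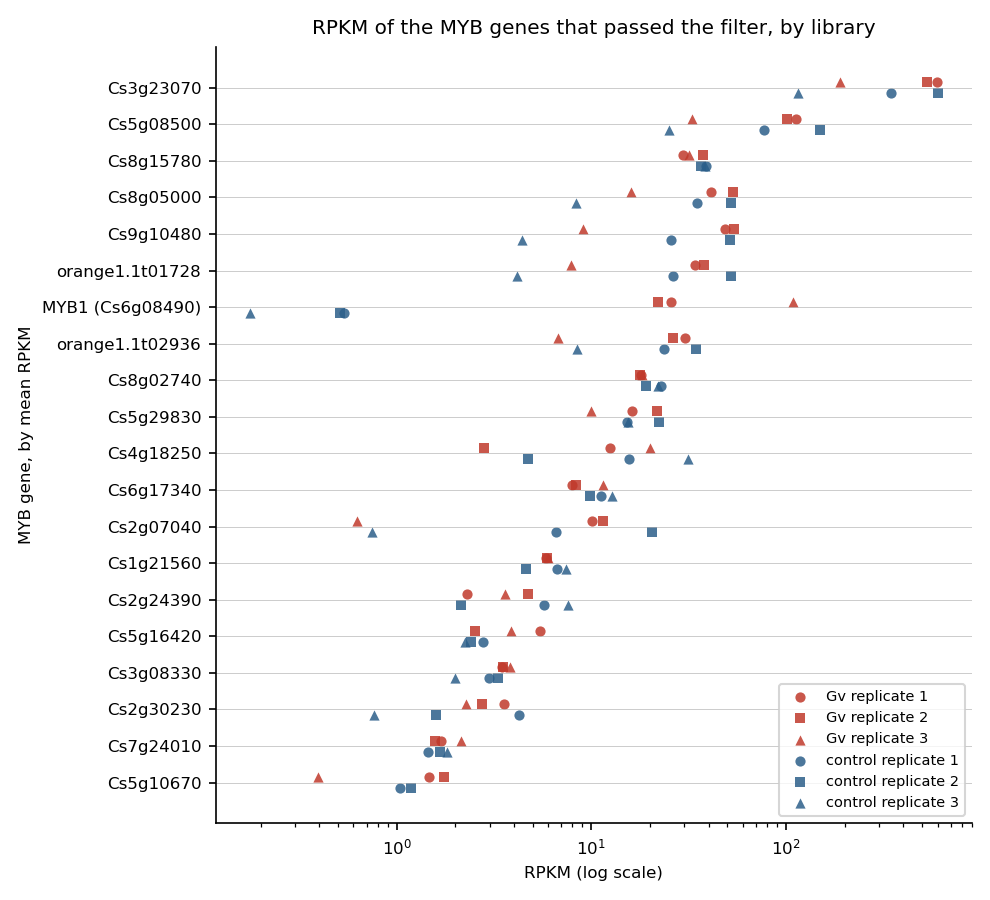
RPKM (log axis) of the 20 MYB genes that passed the filter, with Gv libraries in red, control libraries in blue and the shape giving the replicate number. In the highest gene, Cs3g23070, the triangles of replicate 3 lie at 190 and 115, below the other 4 libraries, and MYB1 is the gene whose colours separate widely. Cs5g10670 had no read in control replicate 3, which is not drawn.

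Among the 20 genes that passed, 8 had both replicate 3 libraries below all of the other 4 (background 20.1%) and 3 had both above (background 25.3%). The 3 with both above were Cs4g18250, Cs6g17340 and Cs7g24010. In 9 of the 20 the mean of the replicate 3 libraries was under 50% of the mean of the other 4 (background 6.74%), and in 2 it was over 2 times that mean (background 5.79%). Among 48 further genes that passed and that KEGG files as plant MYB proteins, it was under 50% in 4. The count of 9 thus holds for the genes matched by name and not for MYB genes at large. The highest library was a median of 5.11 times the lowest for the 19 MYB genes that passed the filter and had reads in every library and 1.72 times for all genes tested. These are descriptions of the libraries. Replicate 3 was seen to stand apart before these genes were counted, and neither the labels nor the methods say what its number marks.

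The 8 genes low in replicate 3 include 6 of the 10 MYB genes with the highest mean RPKM, among them Cs3g23070. Cs5g08500, a MYB gene with its hit in longan, stood at 112, 102 and 33.0 RPKM in Gv against 76.9, 150 and 25.2 in control. Cs9g10480, a MYB-related gene with its hit in rice, stood at 48.6, 53.8 and 9.01 RPKM in Gv against 25.6, 51.3 and 4.43 in control. The MYB-related gene orange1.1t01728, whose hit resembles protein P, the maize regulator of red flavonoid pigments, stood at 33.9, 38.1 and 7.89 RPKM in Gv against 26.2, 52.4 and 4.14 in control. In each of these the replicate 3 library was the lowest of its group, and the groups overlapped.

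Cs8g05000, named only as a MYB domain class factor, had 272, 371 and 105 reads in Gv against 236, 371 and 57 in control. The second gene with a longan hit, orange1.1t02936, stood at 30.1, 26.3 and 6.71 RPKM in Gv against 23.5, 34.3 and 8.42 in control. Its reads covered only 9.27% to 19.2% of its length (755 bases) in a library. The RPKM of orange1.1t02936, and its place among the highest genes, thus rest on a short part of the gene. Cs2g07040, with its hit in Medicago, had the widest spread of those with reads in every library, with 130, 157 and 8 reads in Gv against 88, 286 and 10 in control. Its neighbour by identifier, Cs2g07030, is also a MYB gene and had 6, 13 and 1 reads in Gv against 4, 13 and 0 in control. These are the only MYB genes with neighbouring identifiers, and both were lowest in replicate 3. The last of the 8 was Cs5g10670, whose hit is a peony protein also called MYB1 but which is another gene than Cs6g08490. It had 15, 19 and 4 reads in Gv against 11, 13 and 0 in control.

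Over the 8 genes the mean RPKM of replicates 1 and 2 was 2.94 to 17.2 times that of replicate 3 in Gv. In the controls it was 3.43 to 18.3 times, leaving out Cs5g10670, which had no read in control replicate 3. The 28 pairs of these genes had correlations of log2(RPKM + 0.5) from 0.868 to 0.995 over the 6 libraries. The rule that grouped these genes used the same values. Gv replicate 1 lay above control replicate 1 in 8 of 8 genes, Gv replicate 2 lay below control replicate 2 in 5, and Gv replicate 3 lay above control replicate 3 in 6. No direction thus held over the replicates for the group as a whole. In Cs9g10480, Cs8g05000 and Cs5g10670 Gv lay above control within all 3 numbers (background 16.1%). The remaining genes of the group changed direction between numbers. With the block the log2FC values of the 8 ran from -0.20 to 0.74, and the smallest adjusted p from edgeR was 0.560. Their standard errors were 0.67 to 1.20 without block and 0.20 to 0.53 with it.

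**Figure D4:**
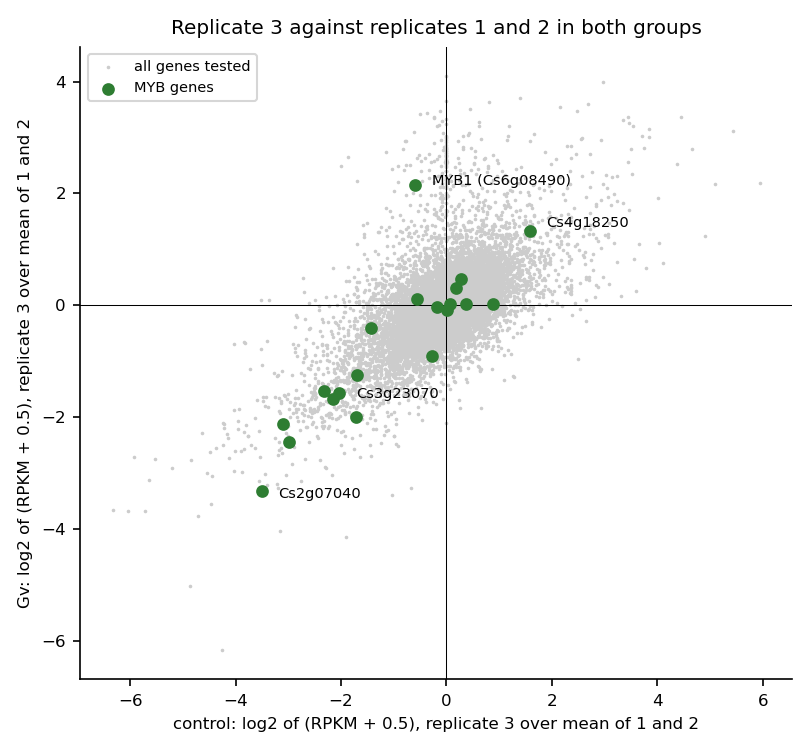
Each point is a gene, placed by log2 of replicate 3 over the mean of replicates 1 and 2 (RPKM + 0.5), in the controls (horizontal) and in Gv (vertical), with the 16281 genes tested in grey and the 20 MYB genes in green. A group of 8 MYB genes lies below -1 on both axes, and MYB1 lies above 1 on the Gv axis alone.

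A log2 ratio of replicate 3 over replicates 1 and 2 below -1 in both groups was found in 8 of the 20 genes, against 3.64% of all genes tested. A ratio above 1 in both was found in 1, Cs4g18250, against 1.61% of all genes tested. MYB1 did not share this pattern, since its replicate 3 library was high in Gv and low in control.

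Cs4g18250, singled out after its values were seen, has as its hit MYB82, which takes part in trichome development in Arabidopsis. It stood at 12.5, 2.81 and 20.1 RPKM in Gv against 15.6, 4.70 and 31.3 in control. Replicate 3 was the highest and replicate 2 the lowest in both groups, and within each number Gv lay below control. With the block its log2FC was -0.54 (standard error 0.17, unadjusted p = 0.0220 and adjusted p = 0.422 in edgeR's test), which did not pass the limit. Without block it was -0.53 (standard error 0.81). Gv lay below control within all 3 numbers in 3 of the 20 genes (background 13.1%) and above in 6 (background 16.1%).

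Other MYB genes varied less among the libraries. Cs8g15780, with the hit MYB24, a factor of stamen development in Arabidopsis, stood at 29.4, 37.6 and 31.7 RPKM in Gv against 38.9, 36.5 and 38.2 in control. Its log2FC was -0.22 (standard error 0.13, 95% confidence interval -0.53 to 0.10). Cs7g24010 is the longest of the 40 genes (9378 bases), and stood at 1.70, 1.57 and 2.14 RPKM in Gv against 1.44, 1.68 and 1.82 in control. Its hit is a myb-like protein of the SHAQKYF class, but its KEGG entry is a chlorophyllide b reductase, an enzyme of chlorophyll breakdown, so its place among MYB genes is uncertain. Cs5g29830, with a Myb4-like hit, stood at 16.2, 21.8 and 9.96 RPKM in Gv against 15.2, 22.4 and 15.4 in control, with a log2FC of -0.16 (standard error 0.32).

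Other genes that passed are named after MYB proteins of known role. Cs2g30230, with a hit to MYB46, a switch of secondary wall synthesis in Arabidopsis, had 27, 22 and 17 reads in Gv against 33, 13 and 6 in control. Cs6g17340, with a MYB3-like hit and a hormone response entry, had 86, 95 and 122 reads in Gv against 124, 114 and 143 in control. Cs5g16420, a myb-related protein B gene, had 61, 30 and 43 reads in Gv against 32, 29 and 26 in control. Their log2FC values were 0.37 (standard error 0.60), -0.29 (0.18) and 0.66 (0.33). For Cs5g16420, Gv replicates 1 and 3 lay above all controls and Gv replicate 2 lay within their range. Cs1g21560 and Cs2g24390 were the remaining genes that passed, with log2FC values of -0.08 and -0.53.

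The 20 genes that did not pass the filter were not tested, and in none of them did all Gv libraries lie above or below all controls. Over all genes listed these shares were 5.49% and 3.12%, so nothing about the 20 genes is read from this count. Among them are genes with hits to factors of root barrier and cell surface formation. Cs3g09830 and Cs5g25240 have MYB39 hits, a regulator of suberin in the Arabidopsis endodermis. Cs3g09830 had 0, 1 and 4 reads in Gv against 2, 0 and 11 in control, and Cs5g25240 had 1, 4 and 4 against 9, 6 and 3. Cs8g12680, with a hit to the repressor MYB4 of phenylpropanoid synthesis, had 5, 6 and 14 reads in Gv against 8, 3 and 12 in control. Cs6g21210 (MYB60-like, a guard cell factor in Arabidopsis), orange1.1t00520 (TT2-like, a factor of tannin synthesis), orange1.1t03243 (MYB23-like) and Cs5g10880 (mixta-like) had at most 11 reads in any library.

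By the wording of their hits, the R2R3 group had 8 genes, of which 2 passed the filter, with mean RPKM from 0.0120 to 397. The 11 genes with a numbered hit, such as MYB24, had 5 that passed and mean RPKM from 0.142 to 35.4. The 7 MYB-related genes had 5 that passed and means from 0.744 to 32.1 RPKM. The 2 myb-like genes had 1 that passed, and the 9 genes whose hit fell in none of these groups had 4. The highest and the lowest gene of the family thus belonged to the same group by name. KEGG files 35 of the 40 genes as plant MYB proteins. The identifiers place 8 genes on chromosome 2, 7 on chromosome 5 and 5 on chromosome 6, and 4 genes are unplaced.

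Other genes of the pathways that MYB proteins serve were counted from word lists chosen with earlier results of these data known. Of 32 flavonoid enzyme genes, 22 passed the filter and 0 were called by edgeR with or without the block, and their median log2FC was -0.04. At an unadjusted p under 0.05 in edgeR's test without block 3 were higher (background 3%) and 2 lower (background 1.57%). All Gv libraries exceeded all controls in 3 of the 22 (background 5.35%) and lay below them in 3 (background 3.26%). DESeq2 (background 1.15%) and the NOISeq criterion (background 1.35%) each called 1 higher. In both it was Cs7g12240, a putative flavonol synthase or flavanone hydroxylase gene with 12, 13 and 85 reads in Gv against 0 in all 3 controls. Cs7g12240 passed the filter through its Gv libraries alone and is among the genes separated higher. Nothing is therefore read from the shares beside the counts of flavonoid genes that were higher. The chalcone synthase gene Cs8g09800, chosen after its values were seen, had 128, 245 and 310 reads in Gv against 478, 395 and 410 in control, with a log2FC of -0.88 (standard error 0.30, adjusted p = 0.880 in edgeR's test without block).

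Of 14 genes for Casparian strip or CASP-like proteins, 6 passed and 0 were called by edgeR with or without the block, by DESeq2 or by the NOISeq criterion. At an unadjusted p under 0.05 in edgeR's test without block 1 was lower (background 1.57%). The gene with the largest change was Cs2g10390, with 76, 105 and 145 reads in Gv against 273, 229 and 162 in control, a log2FC of -0.997 (standard error 0.30, adjusted p = 0.699 in edgeR's test without block). It was the 1 gene of the 6 whose groups did not overlap (background 3.26%), and replicate 3 was the nearest pair. Of 3 genes for SPX proteins, the phosphate sensors that restrain MYB-CC factors, 0 were called by edgeR or DESeq2, 1 was lower at an unadjusted p under 0.05 (background 1.57%) and the NOISeq criterion placed 1 lower (background 0.323%). In 1 of the 3, Cs5g10180, all Gv libraries lay below all controls (background 3.26%). Cs5g10180, named after its values were seen, had 365, 400 and 461 reads in Gv against 486, 643 and 685 in control, and its log2FC was -0.53 (standard error 0.17, adjusted p = 0.80 in edgeR's test without block). The SPX gene orange1.1t00194, the one that NOISeq placed lower, had 337, 356 and 417 reads in Gv against 306, 454 and 1955 in control. Control replicate 3 lay far above the other 5 libraries, and the log2FC was -1.23 (standard error 0.66). The list of WD40 and bHLH partners of R2R3 proteins matched 0 genes by its words.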

How the data were processed

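The 6 files hold, per the labels, 3 Gv and 3 control libraries. After filtering, the authors ran SOAPaligner/SOAP2 with at most 2 mismatches against the genome of Citrus sinensis and deposited the counts of uniquely aligned reads per gene, not normalized. The annotation release is not given in the sources used here. RPKM values and the percent of each gene's length covered by reads were likewise deposited. Genes that sweet orange lacks, or reads too diverged to align, are not covered, and reads of close MYB copies are lost where they align to more than 1 place.

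The test was that of edgeR 4.0.16 under R 4.3.3 (expression filter, TMM factors, quasi-likelihood) on the counts of 16281 genes, with Benjamini-Hochberg adjustment. Standard errors were derived from the F value. p-values were not adjusted within the MYB list. Alternatives were DESeq2 1.42.0, log2(RPKM + 0.5) or log2(RPKM + 0.1) in limma 3.58.1, other scalings and filters, no fold limit, the replicate block, each library left out, and the NOISeq criterion, re-implemented in Python 3.11.15 (probability of at least 0.8, 0.5 in place of a count of 0). edgeR, DESeq2 and limma were checked on simulated counts. Interval and floor values (3 reads) cover counting error only.

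Same-numbered Gv and control libraries deviated together across genes (correlations 0.350, 0.474 and 0.609), so the numbers were taken to pair them, although the labels do not say so. Replicates 1 and 2 crossed also correlated, Gv replicate 1 with control replicate 2 at 0.422 and Gv replicate 2 with control replicate 1 at 0.269. The value of 0.422 exceeds the 0.350 of the libraries numbered 1, so the pairing within numbers 1 and 2 is uncertain. The common coefficient of variation was 29.9% without and 16.7% with the block.

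The members, lists and tests were chosen with earlier results of these data known. Named genes are MYB1, genes called or separated with at least 2-fold, the 10 highest, the highest of each name group, those farthest from the others in replicate 3, the largest change of each list and the 10 most like MYB1. Any other gene was chosen after its values were seen.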

Additional observations from a re-analysis of the deposited data

How the results depend on the processing

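The count of MYB genes called higher, 0 in edgeR's test without block, was 1 with DESeq2, with the replicate block, without Gv replicate 3, with both replicate 3 libraries left out (an alternative chosen after seeing the data), with limma at either pseudocount and with the NOISeq criterion. Leaving out 1 library at a time gave 0 to 1, and MYB1 was the gene called each time. The other alternatives run (scaling by library totals or upper quartile, a mean count limit of 10 or no filter at all, and no fold limit) gave 0. The count called lower was 0 under every alternative run. The log2FC of MYB1 was 6.97 with DESeq2, 6.79 with the replicate block, 5.42 without both replicate 3 libraries, 5.49 and 6.37 with limma (pseudocounts 0.5 and 0.1), and 5.79 to 7.25 with 1 library left out. MYB1 passed the threshold in all of these except 5 of the 6 runs that left out 1 library, so its call depends on the test used as well as on Gv replicate 3 and the block.

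Of 180 alternative fits of the 12 other named MYB genes, 0 were called and 22 had the other sign. The cause was not tested. Cs5g08500 was 0.11 with the block and 0.12 with limma, and orange1.1t01728 was 0.13 with the block and 0.26 and 0.28 with limma. With 1 library left out the ranges were -0.14 to 0.95 for Cs3g23070, -0.50 to 0.70 for Cs5g08500, -0.28 to 0.79 for Cs8g05000, -0.087 to 1.32 for Cs9g10480, -0.60 to 0.82 for orange1.1t01728, -0.48 to 0.42 for orange1.1t02936, -0.44 to 0.092 for Cs5g29830, -0.015 to 0.21 for Cs7g24010 and -0.92 to 1.02 for Cs2g07040.

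The count of genes with every Gv library above every control library was 2 to 4 with 1 library left out and 5 without both replicate 3 libraries. The count below was 1 to 4 with 1 library left out, 5 without both replicate 3 libraries and 2 on TMM-scaled counts (CPM). No share of all genes was set beside the count on TMM-scaled values, so nothing is read from it. Over all 40 genes, 5 had both replicate 3 libraries above the others and 9 had both below. Over all genes tested, a narrower set than all genes listed, the shares were 25.3% above and 20.1% below.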

Other observations

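The rule by hit names leaves out 72 further genes that KEGG files as plant MYB proteins, a list made after seeing the data. Of these, 48 passed the filter, 0 were called by edgeR with or without the block or by DESeq2, and their median log2FC was 0.02. At an unadjusted p under 0.05 in edgeR's test without block 2 were higher and 2 lower, against 3% and 1.57% of all genes tested. Over the 72 genes the NOISeq criterion placed 1 higher and 1 lower, against 1.35% and 0.323% of all genes listed. The gene higher was Cs5g27440, with 92, 124 and 369 reads in Gv against 47, 54 and 59 in control. Its log2FC without block was 1.91, and its adjusted p in edgeR's test with the block was 0.201. The gene lower was Cs5g34990, with 20, 37 and 65 reads in Gv against 160, 135 and 81 in control. Its log2FC without block was -1.59, and its adjusted p in edgeR's test with the block was 0.415. Cs6g21530 did not pass the filter and had 5, 13 and 31 reads in Gv against 0, 1 and 0 in control. In 11 of the 48 both replicate 3 libraries lay below the other 4 (20.1% of all genes tested), and in 5 they lay above (25.3%).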
